A study of Mus musculus with 6 samples.

Results

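The genes described here encode the mitotic kinases, the kinetochore and spindle checkpoint, the anaphase machinery and their closest partners, 50 genes in all. They were chosen as a list of gene symbols by function, with cyclins, condensins and most kinesins left out. The choice was made with earlier results of these data known, so counts set beside all tested genes are a description. Each symbol was matched exactly to a row of the deposited table. All 50 were found among its 19233 genes, and all 50 were among the 9748 genes tested. Values are FPKM, fragments scaled to transcript length in kilobases and to library size, so levels of different genes can be compared per length.

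The cells were RAW264.7, a line of macrophage-like cells from a male mouse, all labelled M2, the alternatively activated state. The series asked how BMH-21, a DNA-intercalating inhibitor of RNA polymerase I, changed the translatome of these cells. In 3 libraries the cells had received 500 nM BMH-21 for 24 h, beginning 24 h after polarization, and in 3 libraries the solvent DMSO. Per the series' design text the RNA came from polysome fractions, the part of an extract in which mRNAs carry several ribosomes. The treatment notes speak of marrow-derived macrophages and of IL-4 or interferon gamma with LPS, and do not say which agent polarized RAW264.7. No unfractionated RNA was used here, so a change in the amount of an mRNA and a change in its share on polysomes cannot be told apart. In these bulk samples, fewer cells in mitosis and less mRNA per cell cannot be told apart either.

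As background, a cell that enters mitosis activates CDK1 and the Aurora and Polo-like kinases, builds a spindle, and attaches each chromosome to it through the kinetochore, a protein layer on the centromere. Unattached kinetochores send the spindle checkpoint signal, which holds back CDC20 and the anaphase-promoting complex (APC/C). Once the signal stops, the APC/C marks securin and cyclin B for destruction, separase cuts the cohesin that joins sister chromatids, and the midzone and contractile ring divide the cell. Most of these mRNAs are made in G2 and early mitosis and run low in cells that do not divide, and RAW264.7 is a proliferating line.

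The steps between low values implied depths of 21600000 to 24100000 reads with DMSO and of 18800000 to 22500000 reads with BMH-21. Of 12 macrophage markers, 11 reached 1 FPKM in a library, with Mertk below it in all. Their summed level was 10876 to 11277 FPKM over the DMSO libraries and 18676 to 19886 FPKM over the BMH-21 libraries, most of it Lyz2, or lysozyme. Of the 11 tested, 7 were called higher (Lyz2 at 185% and Cd14 at 149.6% of DMSO) and 4 lower (Adgre1 at 55.7% and Fcgr1 at 46.7%), and their part in the results was not tested. The markers of T cells, B cells, neutrophils and fibroblasts that could be matched stayed below 1 FPKM. Epithelial markers set libraries apart. Krt8, a keratin of simple epithelia, was at 0 and 0.0236 FPKM in DMSO replicates 1 and 2, at 3.27 FPKM in DMSO replicate 3, and at 4.22, 3.60 and 3.78 FPKM in the BMH-21 libraries. The summed level of the 4 matched epithelial markers (Epcam, Krt8, Krt18 and Cdh1) ranged from 0 to 9.66 FPKM over the DMSO libraries and from 10.9 to 13.9 FPKM over the BMH-21 libraries. The genes of interest did not follow that division: their levels in DMSO replicate 3 were 83.6% (Ttk) to 119.9% (Cenpk) of the mean of DMSO replicates 1 and 2, with a median of 100.5%. With DMSO replicate 3 as the only control, limma called all 50 lower, and the median level left in BMH-21 was 24.9% of that library, against 25.6% of the mean of all 3 DMSO libraries. That fit assumes that a lone control library varies like the BMH-21 libraries.

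All 50 mitotic genes were lower with BMH-21, and in all 50 the highest BMH-21 value was below the lowest DMSO value. The BMH-21 mean ran from 8.08% of the DMSO mean for Plk1, the Polo-like kinase, to 61.8% for Cks1b, a CDK-binding adaptor, with a median of 25.6%. limma with Benjamini-Hochberg adjustment called 50 of 50 lower, where the share of all tested genes called lower was 58.4%, and groups did not overlap downward in 59.5%. A fall of at least 2-fold on the log2(FPKM + 1) scale was called for 39 of the 50, where the share of all tested genes was 5.24%. The median log2 fold change was −1.32, against −0.23 for all tested genes, or −1.09 relative to them. Of the 511 genes called at least 2-fold lower, these 39 made up 7.63%, and they made up 78% of the 50.

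The scaling of the libraries moves the calls over all genes: as deposited, 5690 were called lower and 1938 higher, and with median-ratio scaling 3546 lower and 3643 higher. That scaling moved the median of all tested genes from −0.23 to −0.0015 on the log2 scale. Under it 50 of the 50 mitotic genes were called lower, where 36.4% of all tested genes were, and 33 at least 2-fold lower, where 2.57% were. In 30 of the 50, every BMH-21 library stayed at 1 FPKM or more. As deposited, 30 of these 30 were called lower, beside 58.4% of all tested genes. At least 2-fold lower were 26 of them, beside 5.24%, and their median log2 fold change was −1.62. In the other 20 at least 1 BMH-21 library was below 1 FPKM, and in 17 all 3 were, so these genes passed the filter on low values through the DMSO libraries. Adding 1 FPKM before taking logs compresses their fold changes, so the share of the DMSO level is given as well. At the 2-fold limit, the genes just inside were Cenpa at −1.02 and Incenp at −1.05, and those just outside were Cks2 at −0.997 and Spag5 at −0.94.

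**Figure D1:**
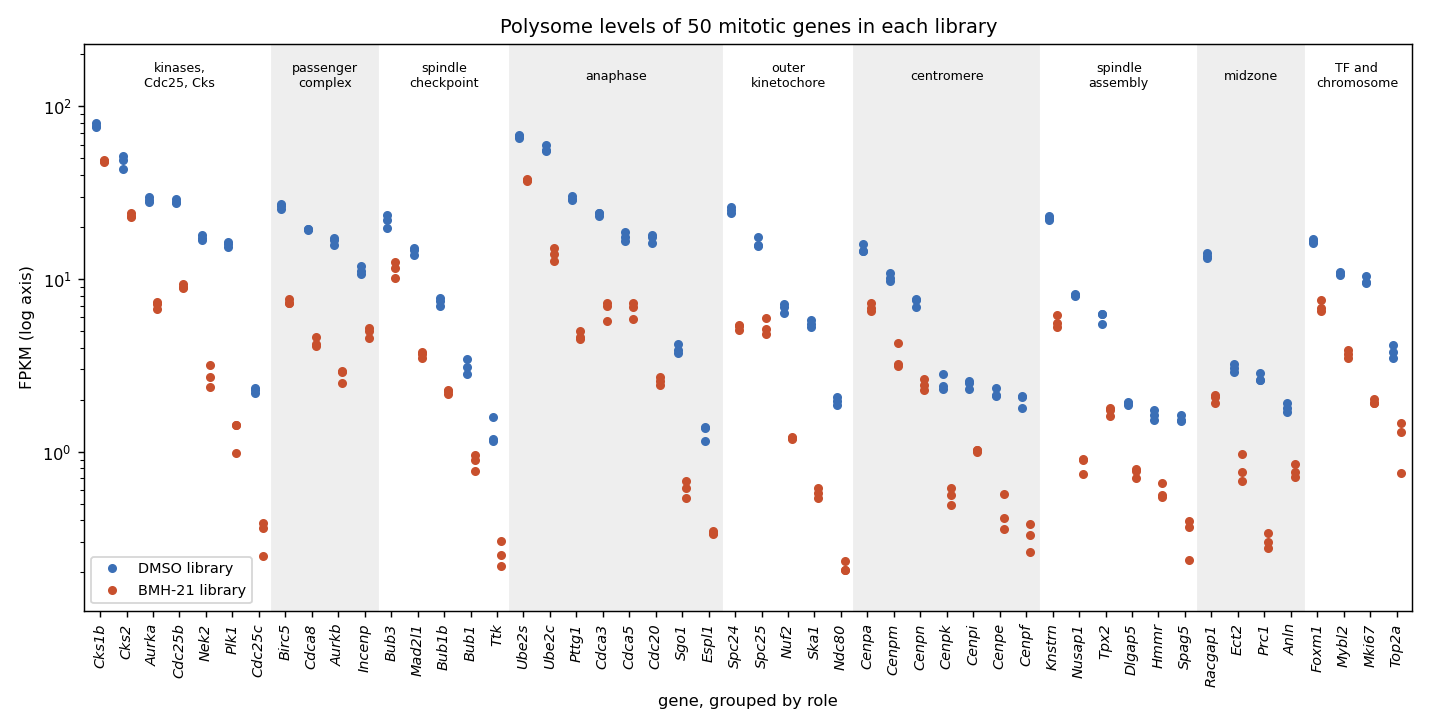
Level of each of the 50 genes (FPKM, log axis) in the 3 DMSO libraries and the 3 BMH-21 libraries, 1 point per library, with genes grouped by role and ordered within a role by their DMSO mean. In every gene the 3 BMH-21 points lie below the 3 DMSO points, from Cks1b (mean 78.0 to 48.2 FPKM) down to Ndc80 (mean 1.97 to 0.215 FPKM).

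**Figure D2:**
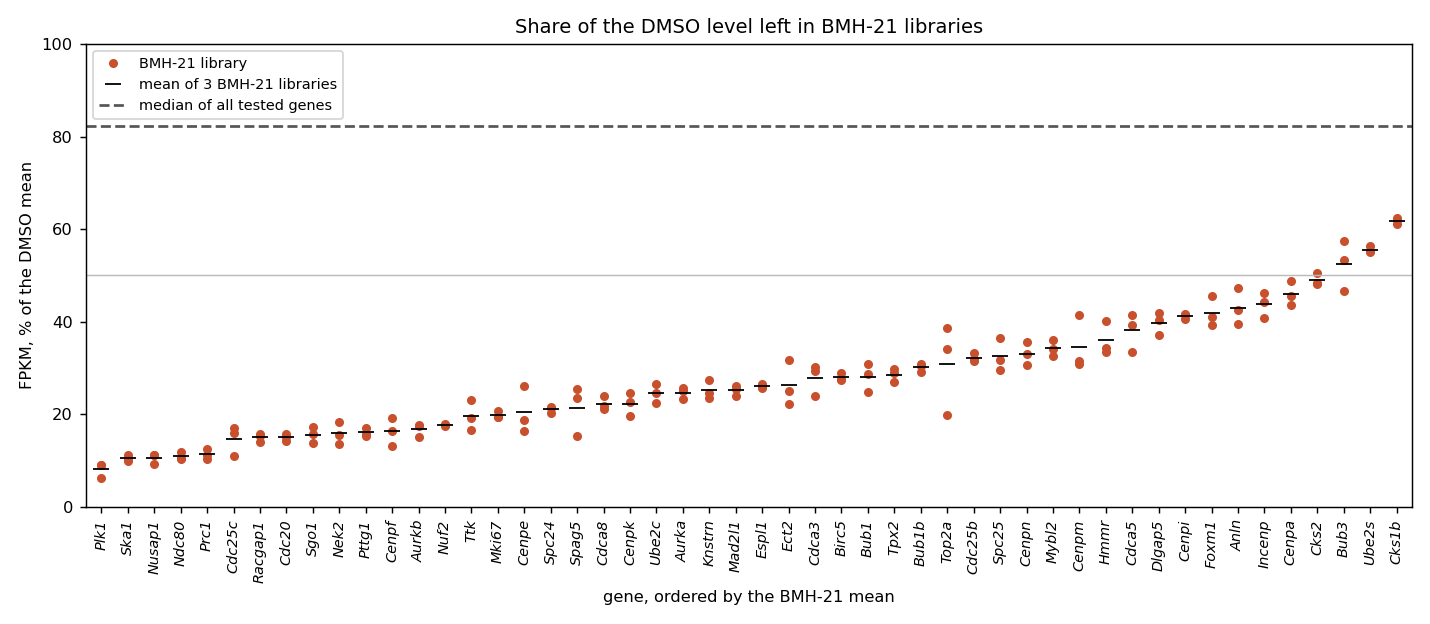
FPKM in each BMH-21 library as a percentage of the DMSO mean, genes ordered by the BMH-21 mean (short bar), with the median of all tested genes (82.2%) as a dashed line. The genes run from Plk1 at 8.08% to Cks1b at 61.8%, and 3 of the 50, Bub3, Ube2s and Cks1b, kept over 50%.

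**Figure D3:**
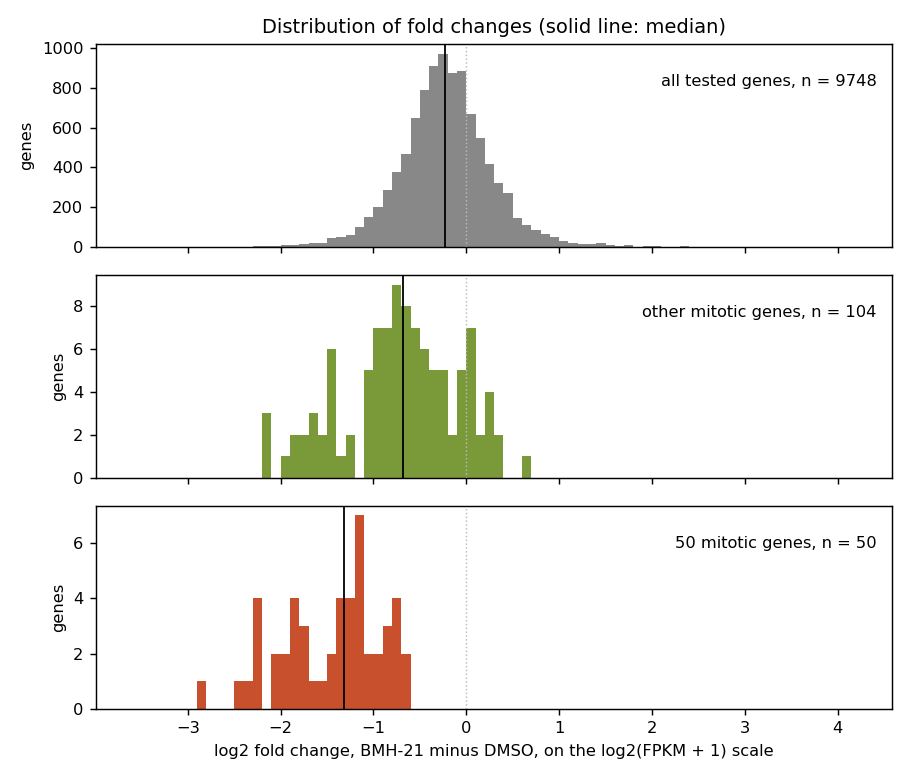
Number of genes by log2 fold change (BMH-21 minus DMSO, log2(FPKM + 1) scale) for all 9748 tested genes, 104 tested genes of other mitotic lists and the 50 mitotic genes. The solid line is the median, at −0.23, −0.68 and −1.32.

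Promoters were searched for short sequence elements as a description of the listed genes, and a link to the fall was not tested. RefSeq promoter windows on GRCm38.p6, from 250 bases before to 50 bases after a gene's start, were matched for 42 of the 50 genes (not for Aurkb, Cdc25c, Dlgap5, Foxm1, Incenp, Ska1, Spc24 and Tpx2). The CHR element, the cell cycle genes homology region, is a short sequence through which MuvB complexes hold such genes off in resting cells (DREAM) and, with B-Myb, turn them on in dividing cells. It was searched as TTTGAA or TTCGAA on either strand, and a CCAAT box, the site of the factor NF-Y, as CCAAT on either strand. A CHR match stood in the window of 30 of the 42 genes (71.4%), against 21.7% of all 27025 genes with a window and 16.6% of the 7703 tested genes with a window. A CCAAT match stood in 31 of 42 (73.8%), against 41.1% of all genes and 43.6% of tested genes, and both in 26 of 42 (61.9%), against 8.61% and 7.10%.

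Windows from 100 bases before to 27 bases after the start show Plk1, the largest fall, Anln, the smallest by log2 fold change, and 3 further genes taken among those with a CHR match: Cdc20 and Racgap1, the largest falls after Plk1 among them, and Cks1b, with the largest share left. Pttg1, Nek2 and Nusap1 fell by more than Racgap1 (−2.41, −2.30 and −2.29 against −2.27), and their windows held 0 CHR matches. Each is written 5′ to 3′ on the gene's strand, with CHR and CCAAT matches of either strand in capitals, and positions count the first base of a match from the start at +1.
Plk1 (chr7:122159335-122159461, plus strand): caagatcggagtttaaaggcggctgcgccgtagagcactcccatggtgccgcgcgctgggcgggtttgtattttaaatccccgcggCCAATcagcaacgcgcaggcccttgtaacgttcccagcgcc
Cdc20 (chr4:118437317-118437443, minus strand): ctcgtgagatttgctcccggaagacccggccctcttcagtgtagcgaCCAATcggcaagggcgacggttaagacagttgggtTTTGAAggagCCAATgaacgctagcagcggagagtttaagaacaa
Racgap1 (chr15:99651630-99651756, minus strand): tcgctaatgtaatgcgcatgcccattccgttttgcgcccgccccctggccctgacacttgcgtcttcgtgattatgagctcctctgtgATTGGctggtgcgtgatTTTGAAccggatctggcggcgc
Cks1b (chr3:89418265-89418391, minus strand): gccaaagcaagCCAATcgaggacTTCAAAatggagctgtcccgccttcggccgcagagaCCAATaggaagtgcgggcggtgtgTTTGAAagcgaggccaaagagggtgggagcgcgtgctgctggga
Anln (chr9:22389180-22389306, minus strand): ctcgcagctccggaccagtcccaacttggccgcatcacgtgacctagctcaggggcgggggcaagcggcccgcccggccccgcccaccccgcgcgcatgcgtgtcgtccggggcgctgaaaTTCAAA
Cdc20 had a CHR match at −18 between CCAAT boxes at −53 and −8, Racgap1 had one at +6 after a reversed CCAAT box at −12, and Cks1b had them at −77 and −17. In Plk1 the CCAAT box was at −14 and its CHR match lay beyond the stretch shown, and in Anln a reversed CHR match was at +22. Strong and weak falls stood on both sides. The 30 genes with a CHR match kept 8.08% to 61.8% of the DMSO level (median 27.1%), and the 12 without kept 10.5% to 49.0% (median 23.7%). Their median log2 fold changes were −1.29 with a match and −1.72 without, and the difference was not tested. A match is a description of letters in this window and does not show that a factor was bound there.

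**Figure D4:**
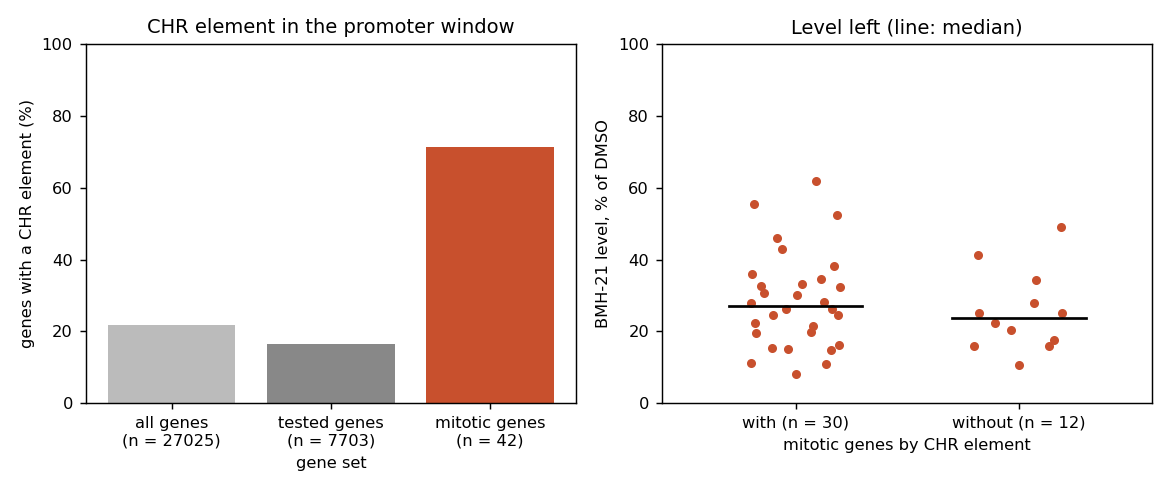
Left, the percentage of genes with a CHR element in the promoter window among all genes, tested genes and the mitotic genes with a window (21.7%, 16.6% and 71.4%). Right, the BMH-21 level as a percentage of DMSO for the mitotic genes with and without a CHR element, 1 point per gene spread sideways for legibility, with medians of 27.1% and 23.7%.

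Among kinases that drive mitosis, Plk1, which acts at mitotic entry, the centrosomes and cytokinesis, fell the most of the 50 on both scales. It was at 15.3, 16.3 and 15.9 FPKM in the DMSO libraries and 1.43, 1.43 and 0.984 FPKM in the BMH-21 libraries. The BMH-21 libraries were all low, with replicate 3 the lowest. That lowest Plk1 value corresponds to 12 to 45 reads, by its shortest and longest coding transcript. The log2 fold change was −2.89 ± 0.08 (SE, limma adjusted p = 1.57e-09), the third largest fall among all tested genes. Nek2, a kinase that separates the centrosomes, was at 17.9, 16.8 and 17.2 FPKM in the DMSO libraries and 2.70, 3.16 and 2.36 FPKM in the BMH-21 libraries, a change of −2.30 ± 0.07. Aurka, the Aurora kinase of the spindle poles, was at 27.9, 28.5 and 29.9 FPKM in the DMSO libraries and 6.69, 7.35 and 7.22 FPKM in the BMH-21 libraries, a change of −1.88 ± 0.05 that left 24.6% of the DMSO level. Groups were far apart in both, and the spread within a group was small beside the gap.

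The CDC25 phosphatases remove the inhibitory phosphates from CDK1. Cdc25b was at 27.7, 29.1 and 27.9 FPKM in the DMSO libraries and 9.03, 8.88 and 9.40 FPKM in the BMH-21 libraries, with 32.2% left. Cdc25c, a much rarer message, was at 2.34, 2.20 and 2.29 FPKM in the DMSO libraries and 0.249, 0.387 and 0.362 FPKM in the BMH-21 libraries, with 14.6% left. The lowest of these Cdc25c values corresponds to about 9 reads, so counting error is large there. The small adaptors Cks1b and Cks2 bind CDKs and help them reach their substrates. Cks1b was at 80.5, 76.4 and 77.2 FPKM in the DMSO libraries and 48.6, 48.3 and 47.6 FPKM in the BMH-21 libraries. Cks2 was at 51.4, 48.7 and 43.5 FPKM in the DMSO libraries and 24.2, 23.0 and 23.1 FPKM in the BMH-21 libraries. Their falls, −0.68 ± 0.04 and −0.997 ± 0.06, were the weakest of this role. Adjusted p in limma ran from 1.42e-09 to 1.65e-07 over the 7 genes of kinases, phosphatases and adaptors.

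In the chromosomal passenger complex, which corrects faulty spindle attachments, all 4 subunits fell by at least 2-fold, beside 5.24% of all tested genes. Aurkb, its kinase, was at 17.3, 15.8 and 16.8 FPKM in the DMSO libraries and 2.91, 2.51 and 2.92 FPKM in the BMH-21 libraries, a change of −2.22 ± 0.06. Birc5, or survivin, was at 26.6, 25.5 and 27.3 FPKM in the DMSO libraries and 7.26, 7.65 and 7.29 FPKM in the BMH-21 libraries, a change of −1.71 ± 0.04. Cdca8, or borealin, went from 19.4 to 4.31 FPKM on average. Incenp, the scaffold that binds and activates the kinase, was at 11.8, 10.7 and 11.2 FPKM in the DMSO libraries and 5.18, 4.59 and 4.97 FPKM in the BMH-21 libraries and kept more of its level (43.7%) than Aurkb (16.7%), Cdca8 (22.3%) or Birc5 (28.0%). The limma adjusted p ran from 1.42e-09 to 8.1e-08.

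The spindle checkpoint genes fell unevenly. Ttk, or MPS1, the kinase that starts the signal, was at 1.59, 1.18 and 1.16 FPKM in the DMSO libraries and 0.217, 0.252 and 0.303 FPKM in the BMH-21 libraries, with 19.6% left. All 3 BMH-21 values of Ttk were below 1 FPKM, and DMSO replicate 1 stood above the other DMSO libraries. The lowest Ttk value corresponds to 2 to 12 reads, by its shortest and longest coding transcript. Mad2l1, or MAD2, which binds CDC20 in the checkpoint complex, was at 13.8, 14.8 and 15.1 FPKM in the DMSO libraries and 3.69, 3.79 and 3.49 FPKM in the BMH-21 libraries, a change of −1.74 ± 0.05. Bub1, a kinase of the kinetochore, was at 2.81, 3.42 and 3.11 FPKM in the DMSO libraries and 0.893, 0.957 and 0.773 FPKM in the BMH-21 libraries. Its paralog Bub1b, or BUBR1, was at 6.98, 7.50 and 7.75 FPKM in the DMSO libraries and 2.25, 2.29 and 2.16 FPKM in the BMH-21 libraries. These paralogs kept similar shares, 28.1% and 30.1%. Bub3, which carries both to the kinetochore, was at 19.8, 21.9 and 23.6 FPKM in the DMSO libraries and 11.6, 10.2 and 12.5 FPKM in the BMH-21 libraries. It kept 52.5%, the most of the 5, and its groups still did not overlap (limma adjusted p = 3.54e-06, with 2.44e-09 to 4.17e-06 over the 5 genes).

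Grouped under anaphase and sister chromatid release were 8 genes, with Cdca3, of mitotic entry, among them. Of these 8, 6 fell by at least 2-fold, beside 5.24% of all tested genes. Pttg1 encodes securin, the inhibitor of separase, and was at 29.2, 28.7 and 30.1 FPKM in the DMSO libraries and 5.01, 4.63 and 4.49 FPKM in the BMH-21 libraries. Its change of −2.41 ± 0.05 (SE, limma adjusted p = 4.48e-10) was second to that of Plk1 among the 50. Cdc20, the APC/C activator that the checkpoint restrains, was at 17.9, 16.1 and 17.5 FPKM in the DMSO libraries and 2.71, 2.44 and 2.57 FPKM in the BMH-21 libraries, a change of −2.35 ± 0.05, and its exons share 53 bases with those of Elovl1, at 52.3 FPKM with DMSO and 59.2 with BMH-21. Espl1, which encodes separase itself, was at 1.39, 1.15 and 1.37 FPKM in the DMSO libraries and 0.347, 0.339 and 0.335 FPKM in the BMH-21 libraries. Espl1 had the lowest DMSO mean of the 50, and its log2 fold change of −0.78 is compressed, since 26.1% of the level was left. Its lowest value corresponds to 4 to 43 reads, by its shortest and longest coding transcript.

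Ube2c and Ube2s are the ubiquitin-conjugating enzymes that start and extend chains for the APC/C. Ube2c was at 59.7, 55.1 and 56.2 FPKM in the DMSO libraries and 15.1, 14.0 and 12.8 FPKM in the BMH-21 libraries, with 24.5% left. Ube2s was at 68.8, 65.7 and 67.6 FPKM in the DMSO libraries and 37.2, 37.9 and 37.1 FPKM in the BMH-21 libraries, with 55.6% left. In the GENCODE annotation of GRCm38, the exons of Ube2s share 183 bases with those of Rpl28 on the opposite strand, a ribosomal protein gene at 397 FPKM with DMSO and 531 with BMH-21, and the strand setting of the counting is not given, so reads there cannot be told apart. In all, 14 of the 50 genes share exon bases with another gene, 10 of them with a coding gene. Sgo1, or shugoshin, which protects centromeric cohesin, fell from 3.94 to 0.611 FPKM on average (−1.62). Cdca3, which promotes mitotic entry, fell from 23.9 to 6.65 FPKM (−1.71), and Cdca5, or sororin, which stabilises cohesin, from 17.6 to 6.70 FPKM (−1.27). Adjusted p in limma ran from 4.48e-10 to 2.01e-06 over this role.

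The outer kinetochore, which grips the spindle microtubules, held the strongest fall as a role by share left, with a median of 17.6% of DMSO over its 5 genes. Spc24 was at 26.3, 24.2 and 25.0 FPKM in the DMSO libraries and 5.44, 5.36 and 5.10 FPKM in the BMH-21 libraries, a change of −2.05 ± 0.05. Ndc80, the microtubule-binding subunit, was at 1.96, 2.08 and 1.87 FPKM in the DMSO libraries and 0.205, 0.232 and 0.207 FPKM in the BMH-21 libraries, a change of −1.29 ± 0.06. Spc24 had the larger log2 fold change, and Ndc80 the smaller share left (10.9% against 21.1%). The lowest Ndc80 value corresponds to about 8 reads. Nuf2, the partner of Ndc80, went from 6.82 to 1.20 FPKM on average, Spc25, the partner of Spc24, from 16.2 to 5.30 FPKM, and Ska1, of the complex that strengthens attachment, from 5.51 to 0.578 FPKM, or 10.5%. The limma adjusted p ran from 8.85e-10 to 4.74e-08.

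All 7 centromere protein genes fell, with a median of −1.17 and 6 of 7 at least 2-fold lower, beside 5.24% of all tested genes. Cenpa, the histone variant that marks the centromere, was at 15.9, 14.4 and 14.6 FPKM in the DMSO libraries and 6.53, 7.31 and 6.82 FPKM in the BMH-21 libraries, with 46.0% left. Cenpm was at 10.8, 9.76 and 10.2 FPKM in the DMSO libraries and 4.25, 3.23 and 3.15 FPKM in the BMH-21 libraries, a change of −1.31 ± 0.09. Cenpi was at 2.51, 2.57 and 2.31 FPKM in the DMSO libraries and 1.02, 0.998 and 1.02 FPKM in the BMH-21 libraries, a change of −0.78 ± 0.06. Both changes passed, and both genes belong to the inner kinetochore network that sits on CENP-A chromatin, as do Cenpk and Cenpn, which fell from 2.50 to 0.557 FPKM and from 7.39 to 2.44 FPKM on average. The large proteins Cenpe, a motor, and Cenpf fell from 2.19 to 0.446 FPKM and from 1.99 to 0.324 FPKM. Within the role, these kept 20.4% and 16.2%, less than Cenpa. The lowest values correspond to 2 to 65 reads for Cenpf, 4 to 59 for Cenpe and 4 to 13 for Cenpk. These ranges are by shortest and longest coding transcript. The limma adjusted p ran from 4.33e-08 to 6.82e-07.

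Of 6 spindle assembly factors, 3 fell by at least 2-fold on the log2(FPKM + 1) scale, beside 5.24% of all tested genes. All 6 kept 39.8% or less of the DMSO level. Nusap1, which bundles microtubules near chromosomes, was at 7.94, 8.08 and 8.17 FPKM in the DMSO libraries and 0.905, 0.742 and 0.900 FPKM in the BMH-21 libraries, a change of −2.29 ± 0.06. Its exons share 172 bases with those of Oip5 on the opposite strand, which went from 10.5 to 2.48 FPKM. Dlgap5, or HURP, which stabilises kinetochore fibres, was at 1.92, 1.86 and 1.93 FPKM in the DMSO libraries and 0.704, 0.768 and 0.798 FPKM in the BMH-21 libraries, with 39.8% left. Tpx2, the activator of Aurora A, fell from 6.01 to 1.71 FPKM, Knstrn from 22.6 to 5.67 FPKM, its partner Spag5, or astrin, from 1.56 to 0.334 FPKM, and Hmmr, a spindle pole protein, from 1.64 to 0.590 FPKM. Adjusted p in limma ran from 1.08e-09 to 2.4e-06.

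The midzone and cytokinesis genes kept 11.3% to 43.0% of the DMSO level. Racgap1, of the centralspindlin complex, was at 13.2, 14.1 and 13.5 FPKM in the DMSO libraries and 1.90, 2.13 and 2.06 FPKM in the BMH-21 libraries, a change of −2.27 ± 0.05. Anln, or anillin, of the contractile ring, was at 1.70, 1.79 and 1.92 FPKM in the DMSO libraries and 0.764, 0.851 and 0.711 FPKM in the BMH-21 libraries, a change of −0.66 ± 0.06. The fall of Anln was the smallest of the 50 by log2 fold change, although 43.0% of its level was left, less than of Cks1b. Prc1, which bundles midzone microtubules, went from 2.69 to 0.305 FPKM on average. Its lowest value corresponds to 2 to 19 reads, by its shortest and longest coding transcript. Ect2, the activator of RhoA at the division plane, went from 3.05 to 0.804 FPKM. Adjusted p in limma ran from 8.85e-10 to 4.71e-06.

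The transcription factors Foxm1 and Mybl2 (B-Myb) activate many genes of G2 and mitosis. Foxm1 was at 16.5, 17.0 and 16.2 FPKM in the DMSO libraries and 7.55, 6.50 and 6.79 FPKM in the BMH-21 libraries, a change of −1.15 ± 0.05. Mybl2 was at 10.6, 10.8 and 10.9 FPKM in the DMSO libraries and 3.51, 3.68 and 3.87 FPKM in the BMH-21 libraries, a change of −1.33 ± 0.05. They kept 41.9% and 34.2% of their level, beside a median of 25.6% over the 50 genes. Mki67, the proliferation marker Ki-67 of the chromosome surface, was at 9.57, 10.4 and 9.54 FPKM in the DMSO libraries and 1.92, 1.92 and 2.03 FPKM in the BMH-21 libraries, a change of −1.88 ± 0.05. Top2a, the topoisomerase that untangles sister chromatids, was at 3.51, 3.76 and 4.17 FPKM in the DMSO libraries and 1.47, 1.30 and 0.752 FPKM in the BMH-21 libraries. BMH-21 replicate 3 was low for Top2a, which had the largest spread of the 50 in that group (coefficient of variation 32.0%, against a median of 7.74%), and the change was −1.16 ± 0.11 (SE, limma adjusted p = 7e-06).

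Within a complex, the ratio of some pairs of subunits shifted and that of others moved little. The ratio of Ndc80 to Spc25 within a library was 0.107 to 0.132 with DMSO and 0.0346 to 0.0450 with BMH-21. In the same complex, the ratio of Nuf2 to Spc24 was 0.242 to 0.298 with DMSO and 0.221 to 0.238 with BMH-21, a small shift between ranges that nearly met. For Aurkb to Incenp it was 1.46 to 1.51 with DMSO and 0.548 to 0.587 with BMH-21, and for Cdca8 to Incenp 1.65 to 1.78 with DMSO and 0.846 to 0.896 with BMH-21. These ranges did not overlap between groups. Among paralogs and paired enzymes, the ratio of Ube2c to Ube2s was 0.831 to 0.868 with DMSO and 0.344 to 0.404 with BMH-21, that of Aurka to Aurkb 1.61 to 1.81 with DMSO and 2.30 to 2.93 with BMH-21, and that of Cks2 to Cks1b 0.564 to 0.638 with DMSO and 0.476 to 0.497 with BMH-21. The ratio of Bub1 to Bub1b overlapped between groups, at 0.401 to 0.456 with DMSO and 0.358 to 0.418 with BMH-21, while that of Bub3 to Bub1b did not, at 2.83 to 3.05 with DMSO and 4.44 to 5.80 with BMH-21. Pairs were chosen after the values were seen and were not tested. With 3 libraries against 3 an exact permutation test cannot give a two-sided p below 0.10. Ratios over gene pairs in general were not taken, so whether such separation is particular to partners was not tested.

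**Figure D5:**
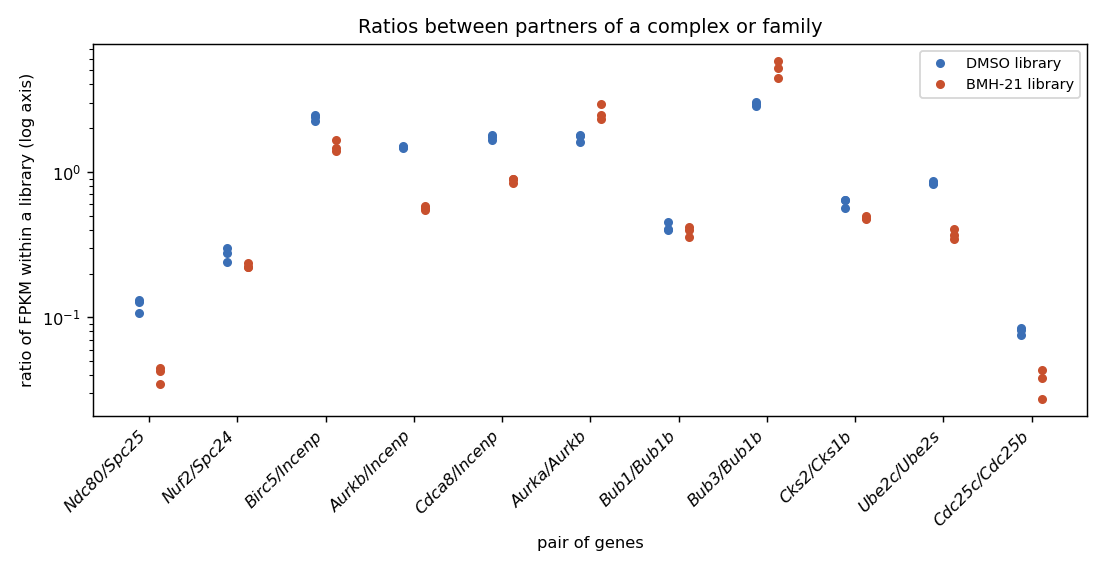
Ratio of the FPKM of paired genes within each library (log axis), 1 point per library, for partners in a complex or family. The BMH-21 points lie apart from the DMSO points except for Bub1 to Bub1b, at 0.401 to 0.456 with DMSO and 0.358 to 0.418 with BMH-21. Gene pairs in general were not compared, so whether the separation is particular to partners was not tested.

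In order of level, Cks1b, Ube2s, Ube2c and Cks2 led the 50 with DMSO, each apart from the next in all libraries. With BMH-21 the order was Cks1b, Ube2s, Cks2 and Ube2c, again without overlap. Over the whole order, 34 of the 49 neighbouring pairs overlapped in their libraries with DMSO and 35 with BMH-21, so most neighbours do not differ beyond their spread. Plk1 went from the 20th to the 30th place, Pttg1 from the 5th to the 17th, Cenpa from the 21st to the 10th and Foxm1 from the 18th to the 9th. Summed over the 50 genes, the level was 765, 753 and 759.6 FPKM in the DMSO libraries and 264, 257 and 253 FPKM in the BMH-21 libraries. The DMSO mean and the share left were weakly related across the 50 genes (Spearman rho 0.21), a description only, since the genes share libraries.

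Other genes of mitosis that are not among the 50 were listed by role and are given beside them. Of 16 APC/C subunits and regulators, 11 were called lower and 2 higher, a share called lower (68.8%) near the 58.4% of all tested genes, and the median was −0.48. The interphase inhibitor Fbxo5, or EMI1, fell from 13.7 to 2.33 FPKM and the late activator Fzr1, or CDH1, from 17.5 to 4.84 FPKM, while the small subunit Anapc13 rose from 11.5 to 18.8 FPKM. With median-ratio scaling the number called higher in this list was 5.

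Of 27 other kinetochore and centromere genes tested (34 symbols listed, 30 found), 22 were called lower and 4 higher, with a median of −0.79. The share called lower was 81.5%, where 58.4% of all tested genes were called lower and 19.9% higher. With DMSO replicate 3 as the only control, and with column totals made equal, 2 were called higher. Oip5, a loading factor for CENP-A, fell from 10.5 to 2.48 FPKM, and Ska3, a partner of Ska1, from 3.82 to 0.641 FPKM. Cenpb, which binds satellite DNA, rose from 56.4 to 69.9 FPKM. Of 21 other regulators of mitotic entry, checkpoint and exit tested (26 symbols listed, 23 found), 16 were lower and 3 higher. Their median was −0.67. With median-ratio scaling 5 were called higher, and with column totals made equal 1 was. The share called lower was 76.2%, beside the same 58.4%. The kinase gene Pbk fell from 35.3 to 7.20 FPKM and Cdk1, the master mitotic kinase, from 12.3 to 2.67 FPKM, and the phosphatase gene Cdc14b rose from 3.94 to 4.96 FPKM.

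Of 30 other spindle and cytokinesis genes tested (37 symbols listed, 36 found), 27 were lower and 0 higher by limma. Their median was −0.80. There were 0 rises at an unadjusted p under 0.05, and with median-ratio scaling 3 were called higher. Pimreg fell from 25.6 to 4.99 FPKM and Ckap2l, a spindle protein, from 10.5 to 2.01 FPKM. Of 10 genes of the DREAM and MuvB complexes tested (12 listed), 7 were lower and 0 higher by limma, with 0 rises at an unadjusted p under 0.05 and 4 called higher with median-ratio scaling, and with a median of −0.51. That share called lower (70%) is near the 58.4% of all tested genes, and 0 of the 10 were called at least 2-fold lower. The pocket protein gene Rbl1 fell from 4.34 to 1.70 FPKM and Rbbp4 from 21.7 to 11.4 FPKM, while E2f4 was at 39.2 and 39.3 FPKM and did not pass. Across these 5 lists, 83 of 104 tested genes were called lower, 9 higher, and 27 at least 2-fold lower, beside 58.4%, 19.9% and 5.24% of all tested genes. The median of the 104 was −0.68, or −0.45 relative to all tested genes, and that of the 50 was −1.32.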

How the data were processed

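The data were a deposited table of gene expression in FPKM for 3 DMSO and 3 BMH-21 libraries. Sample groups came from the labels. The submitters' processing notes name Trimmomatic 0.38, HISAT2, SAMtools and the mm10 build. The sources used here do not name the counter, the annotation or the tool behind the values. The labels do not name the unit, and that the authors deposited FPKM was read from the values: low values are multiples of a step that scales with transcript length, with 80.0% to 81.2% of 1905 to 2235 low genes per library within 0.02 of a whole read number, at most 15 reads. This was too few to recover counts, so no count test was run. Libraries were made with an oligo-dT kit. The molecule label of DMSO replicate 2 says polyA RNA, and that of the other 5 libraries total RNA.

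Genes at 1 FPKM or more in at least 3 libraries were kept, values were taken as log2(FPKM + 1), and BMH-21 was compared with DMSO over all kept genes in limma 3.58.1 (R 4.3.3) with an intensity trend. A call needs a Benjamini-Hochberg adjusted p under 0.05. Log2 fold changes understate the change of low genes. The fit was also run on simulated data in which few genes changed, in random directions. In the data most genes were called, so that run does not bear on such calls or on the scaling. The 50 genes and the other lists were chosen with earlier results of these data known. Genes printed with a value in every library were the main kinases, checkpoint, anaphase and transcription factor genes whatever their values, and the largest and the smallest change of each role, with Ube2s printed beside its partner Ube2c. Of each other list, the largest rise and the 2 largest falls among called genes are named. E2f4 and the groups of paired genes were picked after their values were seen. The labels do not say that replicates are separate cultures, so p-values measure the spread between these libraries, which may be technical. Alternatives were other pseudocounts, filters and scalings, no intensity trend, a replicate block and leaving out each library.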

Additional observations from a re-analysis of the deposited data

How the results depend on the processing

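The 50 mitotic genes kept their call of lower in 833 of 833 results over 17 alternatives, leaving out any 1 library included. These results share the same libraries and are not separate repeats. Most alternatives kept the filter of 1 FPKM, which 20 of the 50 passed only with the help of the DMSO libraries. A filter of 5 FPKM left 33 of the 50 to test, all called lower. Of these 33, 14 had every BMH-21 library at 5 FPKM or more and 19 did not, so the latter passed with the help of the DMSO libraries, where they are high, and this filter says little about stability. Leaving out 1 library gave 38 to 40 called at least 2-fold lower, a median log2 fold change of −1.36 to −1.32, and 5450 to 5597 lower and 1816 to 1876 higher calls over all genes. The number of calls over all genes moved with the scaling: 3546 lower and 3643 higher with median-ratio scaling, 3349 higher with upper-quartile scaling, 3498 lower and 3517 higher with quantile normalization, and 3465 lower with the 5 FPKM filter. At least 2-fold lower were 251, 270 and 254 genes with these scalings and 979 with a pseudocount of 0.1. Of the 50 mitotic genes, 33, 35 and 29 were at least 2-fold lower with these scalings in turn, and 47 with that pseudocount.

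The median log2 fold change of all genes was −0.28 with a pseudocount of 0.1, −0.0362 without a filter, −0.20 with 5 FPKM, −0.0015 with median-ratio, −0.0368 with upper-quartile and −0.33 with equal column totals, and it turned to 0.0032 with quantile normalization. That of the 50 was −1.90 and −1.54 with pseudocounts of 0.1 and 0.5, −1.71 with 5 FPKM, −1.16 with median-ratio, −1.19 with upper-quartile, −1.06 with quantile and −1.43 with equal totals. Relative to all genes it was −1.62 and −1.29 with these pseudocounts, −1.29 without a filter, −1.51 with 5 FPKM, −1.16 with median-ratio and −1.15 with upper-quartile. A smaller pseudocount compresses low genes less, by construction.

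In the other lists, calls of higher moved with scaling. With median-ratio, upper-quartile and quantile in turn they were 5, 5 and 5 of the APC/C genes, 3, 1 and 3 of the spindle genes, and 4, 3 and 2 of the DREAM genes. For the entry and checkpoint genes they were 5 with median-ratio, 5 with upper-quartile and 1 with equal totals. For the kinetochore genes they were 2 with equal totals and 2 with DMSO replicate 3 as the only control, an alternative chosen after seeing the data. With 5 FPKM, 10 kinetochore, 7 entry and checkpoint, 12 spindle and 4 DREAM genes were called lower, since fewer were tested. Same-numbered libraries of the 2 groups did not deviate together (r of −0.11, −0.09 and −0.06), and no library correlated best with its own number. With the replicate block, 5608 genes were lower and 1894 higher, and the 50 had 50 lower and 39 at least 2-fold lower. The depth limits the lowest genes, where a value rests on few reads.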

Other observations

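The epithelial markers that set DMSO replicates 1 and 2 apart belong to a wider group of genes. By a rule set after the values were seen (at least 0.3 FPKM in the other 4 libraries and more than 8 times the higher of the pair), 28 genes were low in DMSO replicates 1 and 2, and 0 to 1 genes in each of the other 14 pairs of libraries. Krt18, a keratin, was at 0, 0.0644 and 5.47 FPKM in the DMSO libraries and at 8.89, 6.41 and 8.09 FPKM in the BMH-21 libraries. Cxcl1, a neutrophil-attracting chemokine, was at 0, 0 and 6.91 FPKM with DMSO and at 7.90, 8.58 and 0.923 FPKM with BMH-21, so BMH-21 replicate 3 stood apart for it. Fn1, or fibronectin, was at 0, 0 and 1.43 FPKM with DMSO and at 1.49, 1.40 and 2.90 FPKM with BMH-21. The group also held Wfdc2, Msln, Cldn4, Krt7, Epcam, Cdh1 and the matrix protein gene Sparc. In DMSO replicates 1 and 2, Mmp9, a gelatinase, was at 0.153 and 0.170 FPKM, and it was at 2.57 FPKM in DMSO replicate 3 and at 3.49, 2.99 and 1.98 FPKM with BMH-21. For these genes a comparison of the groups is also a comparison of libraries, and the source of the transcripts was not tested.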
